A study of Mus musculus with 6 samples.

Results

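The cluster of mir-191 and mir-425 is a pair of neighbouring miRNA genes, 2 of the 898 listed in a small-RNA sequencing table of mouse embryonic stem cells. Both were chosen by name, and mir-191 was selected on its high level in these same libraries, so the levels, shares, ratio and group differences of both are a description without a test. Pluripotent ESCs of the E14Tg2a line were kept in leukemia inhibitory factor (LIF), and neuronal cells (NCs) were the same line after LIF withdrawal and 48 hours in 1 µM RA (retinoic acid). Each group had 3 libraries, all cells were at passage 37 to 40, and the labels name no genetic change in either group. RNA of each replicate came from a pair of plates. The NC label describes a treatment toward a neuronal lineage and not sorted neurons. The comparison asks which miRNAs differ between the pluripotent and the RA-treated state.

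miR-191 and miR-425 are cut from hairpins of one primary transcript, and each mature strand guides Argonaute to messenger RNAs that pair with its seed, bases 2 to 8. Both are found in many tissues. Because of its even level across tissues, miR-191 is often used as a reference for quantifying other miRNAs.

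The mature strands in RefSeq (build GRCm38) are shown because their seeds decide which transcripts they can pair with, and capitals mark the seed.
mmu-miR-191-5p: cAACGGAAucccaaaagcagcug
mmu-miR-191-3p: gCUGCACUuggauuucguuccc
mmu-miR-425-5p: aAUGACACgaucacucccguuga
mmu-miR-425-3p: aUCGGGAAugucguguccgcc
mmu-miR-489-3p: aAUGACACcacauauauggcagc
The 4 arms of the cluster carried 4 different seeds. Among 1738 mature strands in RefSeq, 1 of the 4 arms shared its seed with a strand of another gene. That arm was miR-425-5p, and the other strand was miR-489-3p. The mir-489 gene was listed at 0 in both groups.

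The 2 hairpins are shown with both mature arms in capitals, since the deposited values are per hairpin gene and do not separate the arms.
Mir191: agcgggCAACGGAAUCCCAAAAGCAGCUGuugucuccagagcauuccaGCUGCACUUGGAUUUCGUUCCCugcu
Mir425: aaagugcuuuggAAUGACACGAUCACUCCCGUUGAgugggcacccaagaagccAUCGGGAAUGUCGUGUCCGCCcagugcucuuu
The hairpin of mir-191 lies at chr9:108568319-108568392 and that of mir-425 at chr9:108568777-108568861, both on the plus strand of GRCm38. They are 74 and 85 bases long and 384 bases apart. The longest stretch that the mir-191 hairpin shared with any of 1004 other hairpins was 10 bases, and for mir-425 it was 12 bases. Neither is thus a near-identical copy of another gene in that set, unlike many families in the table.

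Annotations differ on the transcript around them. In GENCODE M21 both hairpins lie inside the single exon of the lincRNA transcript 4833445I07Rik-201 (chr9:108567533-108569174, plus strand). In the shorter transcript 4833445I07Rik-202, mir-191 is intronic and mir-425 lies beyond its end. The GENCODE gene Dalrd3, which encodes a protein with a DALR anticodon-binding domain, begins 1025 bases after mir-425 and does not contain the hairpins. The RefSeq span of Dalrd3 (chr9:108567484-108572773) starts 2402 bases earlier and contains both. Placement of the cluster in Dalrd3 therefore holds for the RefSeq span and not for the GENCODE one. GENCODE also lists Gm24083, a miRNA gene on the minus strand (chr9:108568295-108568414) that overlaps mir-191. Strand use in counting was not given in the sources used here, so reads of mir-191 and of its antisense partner cannot be told apart.

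**Figure D1:**
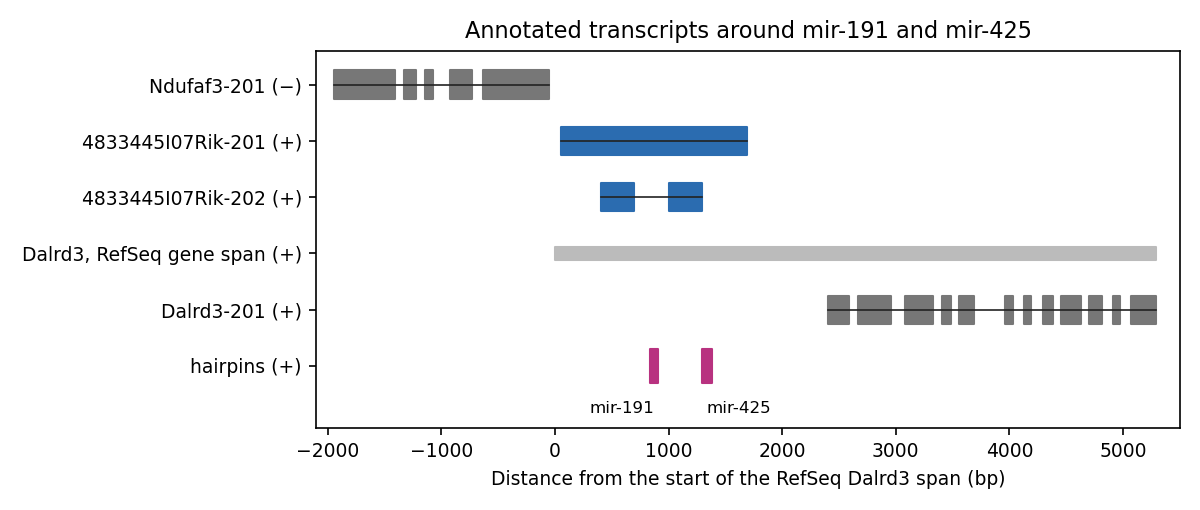
Map of annotated transcripts around the cluster. The x axis is the distance in bp from the start of the RefSeq Dalrd3 span, thick blocks are GENCODE M21 exons, the thin grey bar is the RefSeq Dalrd3 span, and signs in brackets give the strand. Both hairpins sit inside the exon of 4833445I07Rik-201 and ahead of the first GENCODE exon of Dalrd3, which starts 2402 bp from the origin.

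Values were read counts divided by a size factor, a scaling constant for each library, and averaged over each group by the authors. Of the 898 genes, 634 were above 0 in at least 1 group, 549 of them in ESCs and 602 in NCs. Reads of single libraries could be recovered from the means for 98.4% of detected miRNAs in ESCs and 96.8% in NCs. Means above a set limit were not searched, apart from those of mir-191, so most of the largest means were not resolved. The resolved miRNAs held only 24.7% and 11.2% of all signal. Recovered libraries are called A, B and C in order of size factor, which ran from 1.62 to 0.547 in ESCs and from 2.31 to 0.585 in NCs. They carry no replicate number, and their total depth is unknown. Library C stood apart in both groups. Over 266 miRNAs with means of at least 20, the log2 deviation of C from A and B had an SD of 1.28 in ESCs and 1.19 in NCs, while that of A from B had 0.344 and 0.244. As a check of the labels, 9 of 9 ESC marker genes matched by name (miR-290 and miR-302 clusters) had a lower mean in NCs. Their summed means were 136360 in ESCs and 31038 in NCs. The gene listed as mir-290a was not matched and is left out of these sums. It had 1268, 1202 and 1580 normalized counts in ESC libraries A, B and C, and 369, 297 and 416 in NCs. Neuronal marker genes (mir-9 and mir-124 copies) had a higher mean in 6 of 6, from 1272 to 2319 summed. Copies of one name share a mature strand, so these are not 6 independent values. The mir-124 copies were near the floor, with 19 reads or fewer in every library. Retinoic acid responsive mir-10a and mir-10b summed to 3512 in ESCs and 810341 in NCs.

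mir-191 was among the most abundant miRNAs in both states. The authors' mean was 47188 normalized counts in ESCs, the rank of 5 among 549 detected genes and 4.09% of the summed signal. In NCs it was 32790, the rank of 7 among 602, and 2.05% of the signal. The share was thus lower by more than the level was, since the level was 1.44 times as high in ESCs as in NCs.

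In ESCs mir-191 stood between mir-292 at 78854, a member of the ESC-specific miR-290 cluster, and mir-183 at 45340, a gene of the sensory-organ miR-183 cluster. The genes next to these were mir-541 and mir-411 above, and mir-291a and mir-298 below. In NCs its neighbours were mir-298 at 42350 and mir-30a at 32715. The share of mir-30a, a gene of a widely expressed family, was 2.04% of the signal and almost the same as that of mir-191. The next genes in NCs were mir-10b and mir-411 above, and mir-183 and mir-26a-1 below. mir-191 itself, mir-292, mir-183 and mir-298 were not resolved into libraries, so whether neighbours in the order differ beyond their spread could not be judged.

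mir-425 was far lower and lay in the upper part of the distribution. The authors' mean was 1108 in ESCs, at rank 60 and 0.0961% of the signal, and 628 in NCs, at rank 78 and 0.0392%. The ESC level was 1.77 times the NC level. In ESCs it stood between mir-467c at 1124 and mir-148a at 1102, and in NCs between mir-450b at 657 and let-7c-1 at 612. All 4 of these gaps were smaller than the SD of mir-425 between libraries, 232 in ESCs and 67.7 in NCs. In the same order, mir-744, mir-136, mir-106b and mir-467d were close to it in ESCs, and mir-31, mir-96, let-7c-2 and mir-330 in NCs.

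**Figure D2:**
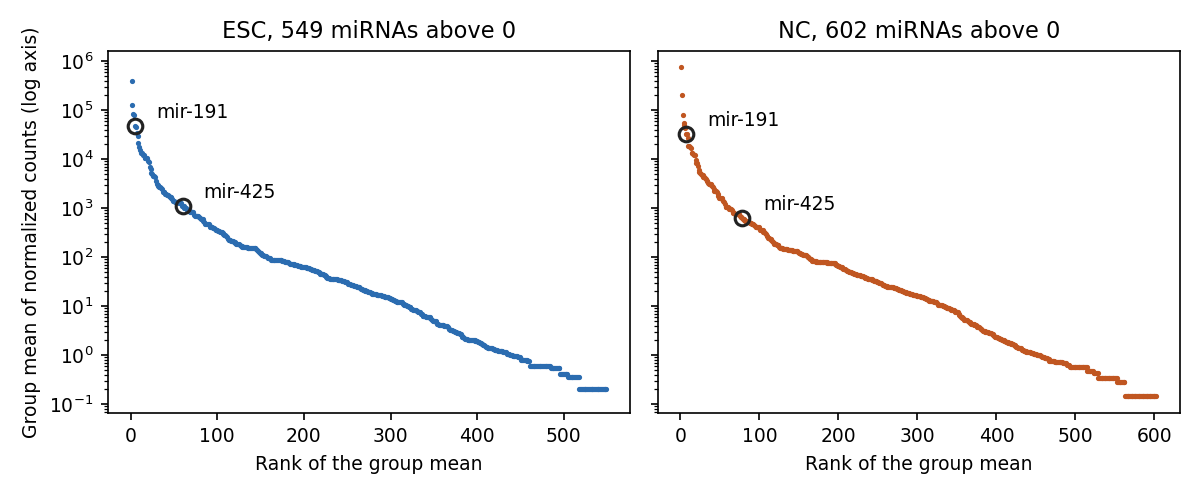
Rank plot of the authors' group means, with rank on the x axis and the mean of normalized counts on a log y axis. Each point is 1 miRNA gene above 0 and open circles mark the cluster. mir-191 is at rank 5 in ESCs and 7 in NCs, and mir-425 is at rank 60 and 78.

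Together the cluster accounted for 4.19% of all signal in ESCs and 2.08% in NCs. Much of that difference in share moved with mir-10a, a gene of the Hoxb cluster, which took 0.185% of the signal in ESCs and 47.1% in NCs. With mir-10a left out of the sum, mir-191 held 4.10% in ESCs and 3.86% in NCs, and mir-425 held 0.0963% and 0.0740%. The 5 genes with the largest sum of both group means were also left out, the same 5 in each group. mir-191 then held 10.2% in ESCs and 6.64% in NCs, at rank 1 and rank 3 of the remaining genes.

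On the log2 scale with a pseudocount of 1, the NC mean differed from the ESC mean by -0.53 for mir-191 and by -0.82 for mir-425. Over the 332 genes averaging 10 or more, the median difference was -0.08, with quartiles at -0.52 and 0.49. More negative than mir-191 were 81 of them (24.4%), and more negative than mir-425 were 50 (15.1%). Among 91 genes with a mean of at least 500, the shares were 29.7% and 20.9%. Both genes were therefore on the lower side of the distribution without being near its end.

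The size of the difference depended on how the groups were set level. Giving both groups the same summed signal shifted all differences by -0.48 and put mir-191 at -1.001 and mir-425 at -1.29. Doing the same without mir-10a shifted them by 0.44 and gave -0.09 and -0.38. Centring on the median gene gave -0.45 and -0.74. Each of these 3 scalings kept both genes lower in NCs, although mir-191 came close to 0 in one of them. A lower level in bulk RNA can come from fewer cells carrying a miRNA or from less of it in each cell, which cannot be told apart here. Of the miRNAs listed as markers of liver, muscle and blood, 6 were matched by name, with summed means of 925 in ESCs and 357 in NCs. The gene listed as mir-451a was not matched, and it had 11 reads or fewer in every library. Nearly all of this was blood-enriched mir-142, while the muscle genes mir-1a-1, mir-1a-2, mir-133a-1 and mir-133a-2 were at 0. The part of such cells in the differences was not tested.

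**Figure D3:**
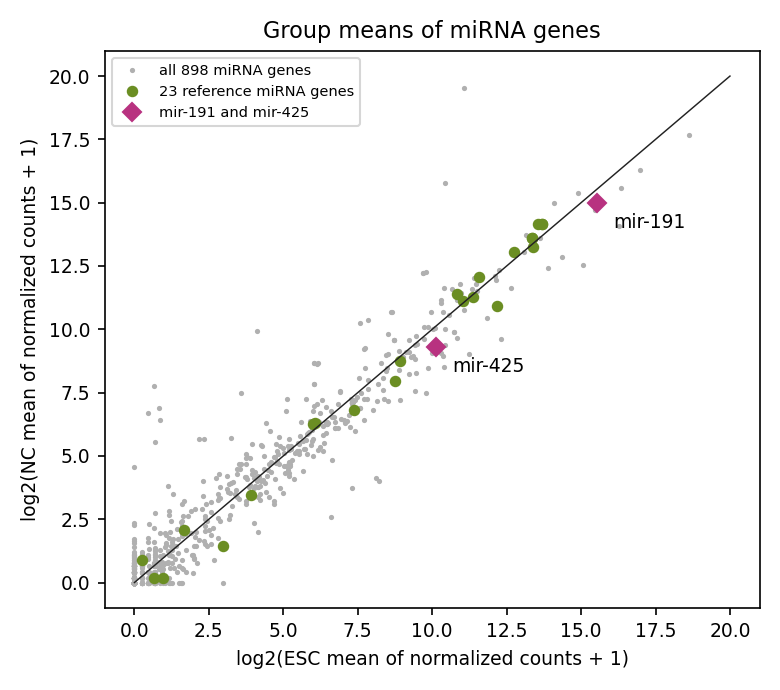
Scatter of log2(mean of normalized counts + 1) in ESCs on the x axis against NCs on the y axis, for all 898 genes, the 23 genes of a reference list and the cluster. The line marks equal means. mir-191 and mir-425 both lie below the line, by 0.53 and 0.82.

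mir-425 was resolved into whole reads in all 6 libraries. ESC libraries A, B and C had 1604, 900 and 753 reads of mir-425, which were 989, 960 and 1376 normalized counts. NC libraries A, B and C had 1318, 595 and 411 reads, or 571, 609 and 703 normalized counts. Each ESC library was above each NC library, and the lowest ESC value was 1.37 times the highest NC value.

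The mean level of mir-425 was 1108 ± 232 in ESCs and 628 ± 67.7 in NCs (SD, n = 3 each). The difference of the mean log2 levels was -0.81 with an SE of 0.19, a level 1.75-fold higher in ESCs. As background, the libraries of the groups did not overlap in 31.8% of 311 resolved miRNAs whose mean was 10 or more, and 14.5% were lower in NCs without overlap. mir-425 belongs to the latter, and nothing is read from that, because the gene was taken as the partner of mir-191 with its values in this contrast known.

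Library C gave the highest value of mir-425 in both groups. It exceeded the mean of A and B by 0.50 on the log2 scale in ESCs and by 0.25 in NCs, and 69.5% and 56.8% of the 266 miRNAs had a lower such deviation. A and B differed by only 0.04 in ESCs and -0.09 in NCs. With only the 2 deeper libraries of each group the log2 difference was -0.72, and between the shallowest libraries it was -0.97. The direction was therefore the same within either set of libraries.

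Between libraries, mir-425 varied less than the median of the 266 miRNAs with means of at least 20. Its SD of log2 levels was 0.29 in ESCs and 0.15 in NCs, while the medians over the 266 miRNAs were 0.45 and 0.42. A smaller SD was found for 26.7% of these miRNAs in ESCs and 11.3% in NCs. They were not matched to mir-425 in level, and counting error is larger where reads are fewer. How much of its smaller spread goes with its level was not tested.

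mir-191 could not be resolved to 1 set of reads. Exactly 3 sets of whole reads gave the ESC mean and 3 gave the NC mean. In ESCs, libraries A, B and C held 14133, 15576 and 111854 normalized counts in the first set, 34552, 32593 and 74418 in the second, and 54970, 49611 and 36982 in the third. In NCs the sets were 15466, 50523 and 32379, then 19022, 38253 and 41093, then 22578, 25983 and 49807. Library C was the highest in 2 of 3 sets in each group, and the group mean is the same in every set.

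In all 9 of 9 pairings of an ESC set with an NC set, the libraries of the groups overlapped. The difference of mean log2 levels ran from -0.67 to 0.09, and it was lower in NCs in 6 of 9 pairings. In the other 3, all with the first ESC set, it was slightly higher. The groups were thus not separate for mir-191 under any set of reads. These 9 pairings count all sets alike. Libraries A and B lay close over the 266 miRNAs, with an SD of 0.244 for their log2 deviation in NCs. Of the NC sets, the third had A and B closest, and they lay far apart in the first and second. With the third NC set, the difference was 0.08, -0.51 and -0.60 for ESC sets 1, 2 and 3. Whether that SD holds at the level of mir-191 was not tested. In every set the level of mir-191 was at least 14133 in each ESC library and 15466 in each NC library, more than 10 times any value of mir-425.

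**Figure D4:**
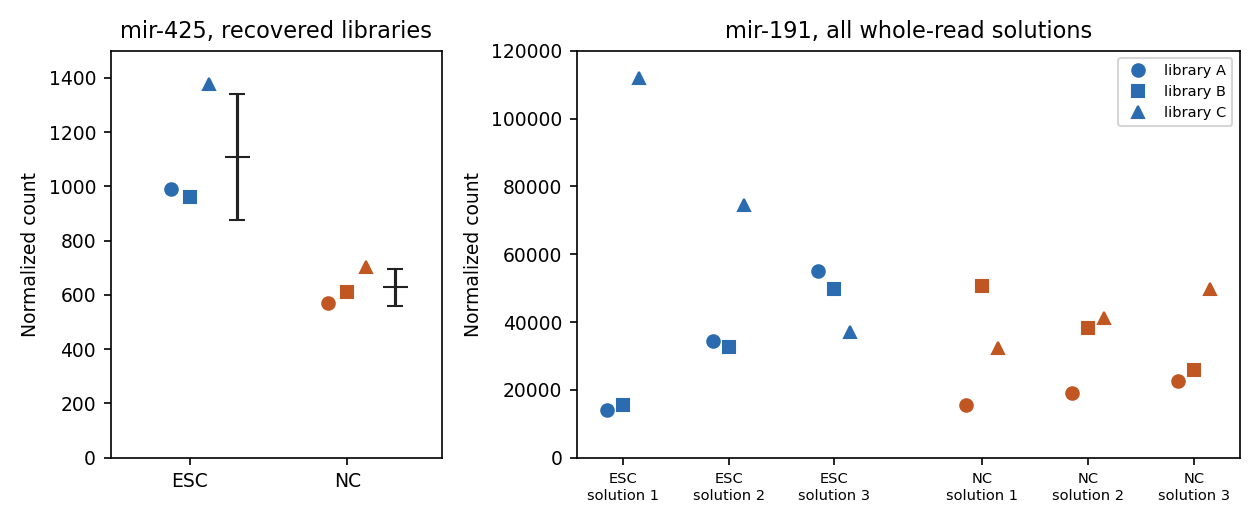
Normalized counts in the recovered libraries, mir-425 at left with group mean and SD (n = 3), and mir-191 at right for each of the 3 whole-read solutions of each group. Circles, squares and triangles are libraries A, B and C, blue is ESC and orange is NC. For mir-425 the ESC points (960 to 1376) lie above the NC points (571 to 703), while for mir-191 the groups overlap in every solution.

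The 2 genes differed strongly in level. A ratio within a group does not depend on scaling between groups. mir-191 was 42.6 times mir-425 in ESCs and 52.2 times in NCs, so that it made up 97.7% and 98.1% of the signal of the cluster. Over the possible read sets, all counted alike, the ratio in a single library ran from 14.3 to 81.3 in ESCs and from 27.1 to 82.9 in NCs. A ratio of group means lies between the library ratios by construction, and the ranges pool alternative read sets of mir-191. They therefore cannot show whether 42.6 and 52.2 differ beyond the spread between libraries.

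For comparison, 140 neighbouring pairs of miRNA genes within 10 kb on 1 strand had means of at least 10 (891 of 898 genes had a position). The absolute log2 ratio of mir-191 to mir-425, 5.41 in ESCs and 5.71 in NCs, was above their medians of 2.14 and 2.12. A larger imbalance was found in 21 pairs in ESCs and 20 in NCs. The log2 ratio of mir-191 to mir-425 was 0.29 higher in NCs, close to the median absolute change of 0.25 over pairs, with 61 pairs changing more and 78 less. Since mir-191 was chosen for its abundance, a high ratio and a place toward the unequal end of unselected pairs are partly set by that choice, and nothing is read from them. Many of the 140 pairs lie among the clustered mir-297, mir-466, mir-467 and mir-669 genes, and many more between mir-337 and mir-410. Adjoining pairs there share a gene. The pairs are thus not independent, and the medians and counts lean on these loci. Hairpins with similar copies elsewhere can share reads, so ratios of such pairs are less certain.

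**Figure D5:**
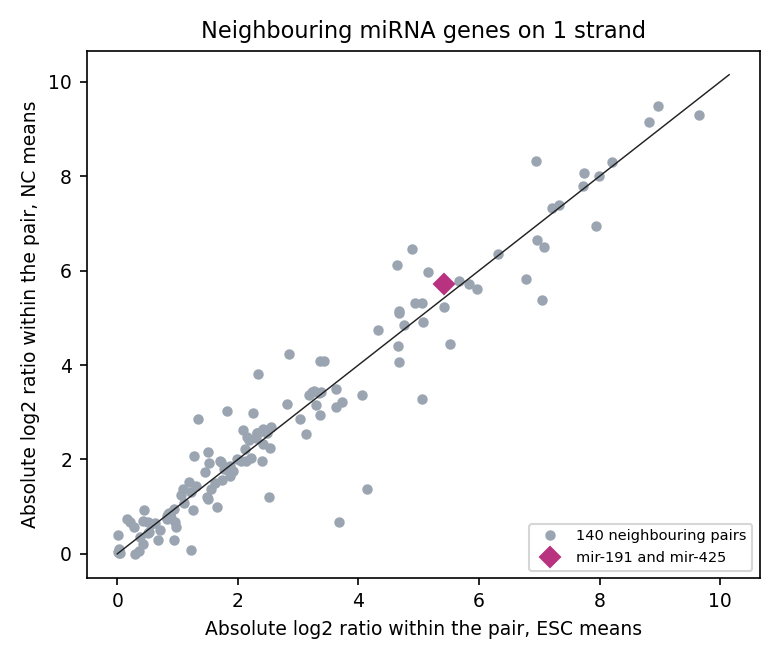
Absolute log2 ratio of the means within each of 140 neighbouring miRNA pairs, ESCs on the x axis and NCs on the y axis. The line marks equal ratios. The cluster (5.41 and 5.71) lies close to the line, toward the unequal end.

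The miRNAs whose levels followed mir-425 most closely over the 6 libraries were mir-205, mir-181d, mir-295, mir-672 and mir-378c. Pearson's r of the log2 levels was 0.998, 0.994, 0.988, 0.984 and 0.973, the highest among 265 miRNAs with means of at least 20. The 6 points fall into 2 groups and share library C, so r reflects both the group difference and the deviation of that library. In mir-205, an epithelial miRNA, ESC libraries A, B and C held 1788, 1473 and 3990 normalized counts and NC libraries held 377, 486 and 711. It had the same order of the 6 libraries as mir-425 with a wider range. By the distance of both log2 group means, mir-183 was nearest to mir-191 (0.31), followed by mir-298, mir-411, mir-292 and mir-30a. Nearest to mir-425 was mir-467c (0.25), followed by mir-467d, mir-136, mir-96 and mir-672.

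Other miRNAs that are used as references or are widely expressed gave a frame for the cluster. The list held 23 genes, of which 18 had a mean of at least 10. Of these, 11 had a higher and 7 a lower mean in NCs, with a median log2 difference of 0.24, against -0.08 over all 332 genes. Over the 330 such genes outside the cluster, 45.5% had a higher mean in NCs. The 11 include both copies of mir-16, mir-26a and let-7a, which share a mature strand within each pair, so that they are not 11 independent values. The differences ranged from -1.25 for mir-423 to 0.58 for mir-30e. A more negative difference than that of mir-191 was found in 3 of the 18 genes, and than that of mir-425 in 1. mir-191 was above all 18 in both groups, and mir-425 was above 6 of them in both. The 3 most abundant of the list were mir-26a-1, with means of 13286 in ESCs and 18380 in NCs, its copy mir-26a-2 at 13288 and 18372, and mir-30e at 12122 and 18062.

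Fitted with limma-voom, 10.0% of 319 miRNAs were called higher and 5.96% lower in NCs at an adjusted p under 0.05. Of the 13 listed genes that could be tested, 0 were called, 0 had an unadjusted p under 0.05, and the lowest Benjamini-Hochberg adjusted p was 0.247, for mir-26b. limma-trend also called 0 of them. With the library set (C against A and B) as a covariate, 23.5% of miRNAs were called higher and 21.6% lower, and of the listed genes mir-186 and mir-26b were higher and mir-24-2 lower. With only the 2 deeper libraries, 28.4% and 21.7% were called, and of the listed genes mir-16-2, mir-186, mir-26b and mir-92a-1 were higher and mir-24-2 lower. These genes, mir-423 and mir-24-1 were named after their values were seen.

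In 2 of the 13 listed genes the libraries of the groups did not overlap, mir-26b and mir-186, a smaller share than the 31.8% over all resolved miRNAs. mir-186 had 6893, 6819 and 6924 normalized counts in ESC libraries A, B and C and 8361, 8957 and 7977 in NCs. The NC libraries were the higher ones here. In mir-423, another common reference, library C decided the mean. It held 12286 normalized counts in ESC library C against 861 and 683 in A and B, and 4343 in NC library C against 657 and 814. The most negative difference among the 18 genes with a mean of at least 10 thus moved with library C. Over the whole list, mir-24-1 was more negative, at -1.53, with group means of 6.93 in ESCs and 1.75 in NCs. The share of library C in the mean of mir-191 is not known, since its 3 ESC sets put between 36982 and 111854 normalized counts there.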

How the data were processed

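Small RNA from 3 ESC and 3 NC samples was sequenced, and the labels give the groups. The deposited file is 1 table of 898 miRNA genes. Its signal columns, made by the authors, average read counts over each group after division by size factors, and it has no columns for single libraries. According to the submitters' processing notes, the authors used DESeq and build mm10. Which aligner, miRNA annotation and counting rules were used is not given in the sources used here. The deposited fold change (a ratio), log2 fold change and p-value columns hold the authors' own comparison and were not used.

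Whole reads of single libraries were recovered by enumeration. Means above a set limit were left out of this search, and those of mir-191 were searched separately. Each library adds a whole multiple of its own step to a mean, and the 10 decimals of the means allow a search for these multiples. Size factors equalled a median of ratios. The recovery was tested on simulated data over a range of means that holds mir-425, but not mir-191 or the largest resolved means. The limma fit was tested on simulated reads without a deviating library such as C. Total depth is unknown, and counting error of mir-425 was 2.50% to 4.93% per library. Reference miRNAs were tested with limma 3.58.1 (R 4.3.3) with voom weights and Benjamini-Hochberg adjustment over 319 of the 613 miRNAs resolved in both groups, those reaching 10 reads in 3 libraries. Since nothing ties libraries to labelled replicates, p-values measure only the spread between libraries, which may be technical. Log2 differences used a pseudocount of 1. Named miRNAs were the cluster, the 3 genes on either side of each member in rank, the 5 most alike by correlation and by distance, reference genes called and the 3 most abundant of them, and genes sharing a seed. The cluster and all lists were chosen with earlier results of these data known. The parts tried as alternatives were scaling, pseudocount, gene copies, the filter, the limma model and the libraries used. Sequences and seeds came from RefSeq GRCm38.p6 and positions from GENCODE M21, matched by symbol (Python 3.11.15, pandas 2.3.3).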

Additional observations from a re-analysis of the deposited data

How the results depend on the processing

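Of 54 values computed under alternatives, 42 stayed within the spread between libraries or the same count. The log2 differences of mir-191 and mir-425 among the 54 all stayed negative, while shares and counts have no direction. The spread of a difference combined the SDs of both groups and is wider than an SE. For mir-191 that spread is not known, and the value used, 0.677, comes from the read sets with the smallest SD. By it, -1.001 and -0.09 both counted as unchanged from -0.53. Beside these 54 values, 3 of 9 pairings of its read sets put mir-191 higher in NCs, with all sets counted alike. The difference of mir-425 was -1.29 with equal summed signal and -0.38 with equal signal without mir-10a, against -0.82. Without mir-10a, the NC shares of mir-191 and mir-425 were 3.86% and 0.0740%. Without the 5 largest genes the shares of mir-191 were 10.2% in ESCs and 6.64% in NCs, and those of mir-425 were 0.240% and 0.127%. These shares rise by construction, since the sum is smaller. Leaving out each library in turn, the difference of mir-425 ran from -0.90 to -0.64, and 0 reference miRNAs were called in either direction. The library set as a covariate called 2 reference miRNAs higher and 1 lower, and the 2 deeper libraries alone called 4 higher and 1 lower, against 0 and 0, and the cause was not tested. No paired analysis was possible because nothing ties a recovered library to a numbered replicate. Depth limits mir-425 little, at 411 reads or more per library, and mir-191 is limited by its 3 possible read sets per group.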

Other observations

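As miRNAs of this cluster serve as references for other miRNAs, all other miRNAs were also set relative to each of them, a step chosen after the data were seen. Of 330 other miRNAs with a mean of at least 10, 45.5% had a higher mean in NCs under the deposited size factors, with a median log2 difference of -0.07. Relative to mir-191, 75.8% were higher and the median was 0.45. Relative to mir-425, 84.8% were higher and the median was 0.75. Each step adds the member's own difference, 0.53 or 0.82, to every miRNA, so both shares and medians follow from it by construction. These are values of 2 group means without a test.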
